A study of Mus musculus with 9 samples.

Results

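SMAD1 occupancy at 36 h in the PV line was described as 768 autosomal regions in which SMAD1 chromatin immunoprecipitation (ChIP-seq) stood at 2-fold or more over the input of the same line. They were chosen by that enrichment alone, out of 2240703 autosomal windows, of which 1165 (0.052%) passed. The study followed mouse cells of the C57BL/6 strain, labelled EpiLC (epiblast-like cells), that were made from embryonic stem cells and then grown as floating aggregates in medium with leukaemia inhibitory factor, with BMP4 and WNT3A present or absent. Activin A, basic fibroblast growth factor and serum replacement had been used in the step that made the epiblast-like cells. Which library received which cytokine is not given in the sources used here. The compared pair is 1 SMAD1 library and 1 input of cells with the Prdm14-mVenus reporter (PV). Set beside them are SMAD1 at 12, 24 and 36 h and TCF1 in cells with the Blimp1-mVenus reporter (BV), T in PV, and inputs titled BV and BVSC, both labelled as the BV reporter. Whether the input PV was taken at 36 h is not given either. Each was the only library of its group, so no difference below has a replicate check and no p-value is given.

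SMAD1 is a transcription factor that carries bone morphogenetic protein (BMP) signals from the cell surface to chromatin. BMP receptors phosphorylate it, it joins SMAD4, and the complex binds DNA mostly together with other factors, raising or lowering the transcription of nearby genes. In the mouse embryo, BMP4 from the extraembryonic ectoderm acts on the epiblast to induce primordial germ cells, and the germ cell-like cells grown in culture depend on the same signal. T (Brachyury) is a T-box factor of the mesoderm, and TCF1 a factor that responds to WNT signals. ChIP-seq reports on a mixture of cells, in which more bound cells and more binding per cell cannot be told apart, and on no transcripts, so the labelled cell type was not checked against marker genes. The positions of genes in the genome build of these files (mm9) were not used here, so regions are named by their coordinates and no gene is tied to them.

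The SMAD1 library held 43354004 reads and its input 42532115, against 14925074 to 23275288 in the SMAD1 libraries of BV. The deposited counts are for overlapping 2 kb windows whose starts lie 1 kb apart. A window of typical input level, between the 10th and 90th percentile of mean input, held on average 36 SMAD1 counts and 34.9 input counts, against 12.4 to 19.4 counts in the SMAD1 libraries of BV. Counts were divided by the library's own mean over such windows, and enrichment is the scaled SMAD1 value plus 0.5 over the scaled input plus 0.5. Passing windows that overlapped or adjoined were merged, and the highest window is called the summit. On chromosome 1, the stretch from 12968001 to 13140001 stood at a median scaled level of 10.6 in this SMAD1 library and 10.2 in input PV, against 1.12 in each of the inputs BV and BVSC, and 11.2 in T of PV. The excess was thus shared by the PV libraries and missing from the BV inputs, which matches the line each was labelled with. All but 3 windows of that stretch were left out for high input.

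Enrichment was strong at few places. At 4-fold or more, 127 windows (0.00567%) in 75 regions passed, at 3-fold or more 261 windows (0.0116%) in 135 regions, and at 2-fold or more 1165 windows in 768 regions. With regions merged at 2-fold and classed by their summit, 74 reached 4-fold or more, 61 lay between 3- and 4-fold and 633 between 2- and 3-fold. Only 10 regions had a summit at 8-fold or more. No region at 3-fold or more lay on chromosome 3.

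Fold alone separated SMAD1 windows from the background of the libraries at 3-fold but not at 2-fold. With the roles exchanged, input PV stood over SMAD1 at 2-fold or more in 1389 windows (0.062%), more than the 1165 windows of SMAD1 over input. At 3-fold the exchanged count was 3 (0.000134%) and at 4-fold 0, against 261 and 127 for SMAD1. The curves crossed just above 2-fold, since at 2.2-fold SMAD1 passed in 618 windows and the exchanged ratio in 315, and at 2.5-fold in 398 and 41. An input in place of SMAD1 gave a like picture, with 1745 windows (0.0779%) at 2-fold, 12 (0.000536%) at 3-fold and 1 (4.46e-05%) at 4-fold for input BVSC. Input BV, the deepest library, gave 154 windows (0.00687%), 10 (0.000446%) and 1 (4.46e-05%) at the same folds. At 2-fold the count for SMAD1 was therefore below the exchanged count and below that of input BVSC, though above that of input BV. The class of 2 to 3 is described below partly with libraries that did not choose it. Over each of the 3 inputs, a condition added after the data were seen, SMAD1 stood at 2-fold in 564 windows and 289 regions, against 138 windows and 128 regions with the roles exchanged.

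**Figure D1:**
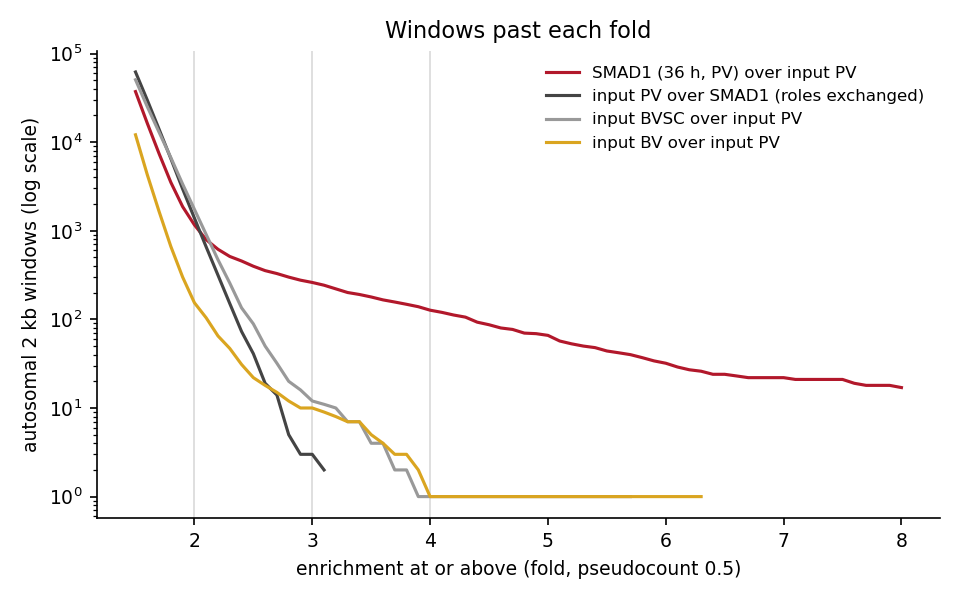
Number of autosomal 2 kb windows (y axis, log scale) at or above each enrichment (x axis, fold with a pseudocount of 0.5) for SMAD1 at 36 h in PV over input PV, for the same pair with the roles exchanged, and for inputs BVSC and BV over input PV. At 2-fold SMAD1 has 1165 windows and the exchanged pair 1389, whereas at 3-fold SMAD1 has 261 and the exchanged pair 3.

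The strongest region lay on chromosome 7 from 30935001 to 30940001. Its summit held 922 SMAD1 counts against 36 input counts, a plain ratio after scaling of 24.9 (exact Clopper-Pearson 95% interval 17.8 to 35.7, counting error only) and an enrichment of 17.1. The next, on chromosome 11 from 121718001 to 121723001, held 686 SMAD1 counts and 31 input counts and reached 14.1. Enrichment then fell quickly with rank, and the fifth region was already at 10.7.

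Chromosome 9 from 22081001 to 22086001 reached 12.0, with 683 SMAD1 and 39 input counts. Chromosome 8 from 71750001 to 71755001 reached 10.9 and chromosome 11 from 50712001 to 50717001 reached 10.7. Chromosome 13 from 66531001 to 66535001 had only 15 input counts at its summit, so its plain ratio of 20.7 had the wide interval 12.4 to 37.4. Of the last 4 of the 10 strongest, those starting at 134753001 (9.60) and 24888001 (8.45) lay on chromosome 7, the one at 29295001 (9.03) on chromosome 17 and the one at 104657001 (8.90) on chromosome 2. All 10 remained at 6-fold or more when input BVSC or input BV took the place of input PV, the lowest value being 6.08 for the chromosome 13 region over input BVSC.

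The same 10 windows were enriched in every SMAD1 library of BV. At 12 h in BV they measured between 7.40 and 20.0, at 24 h between 3.75 and 8.19 and at 36 h between 3.58 and 6.27. PV at 36 h was above BV at 36 h at each of them, though the windows were chosen as the highest in PV. T, measured in the same PV line over the same input, stood between 0.90 and 1.51 there, and TCF1 between 0.66 and 2.04.

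**Figure D2:**
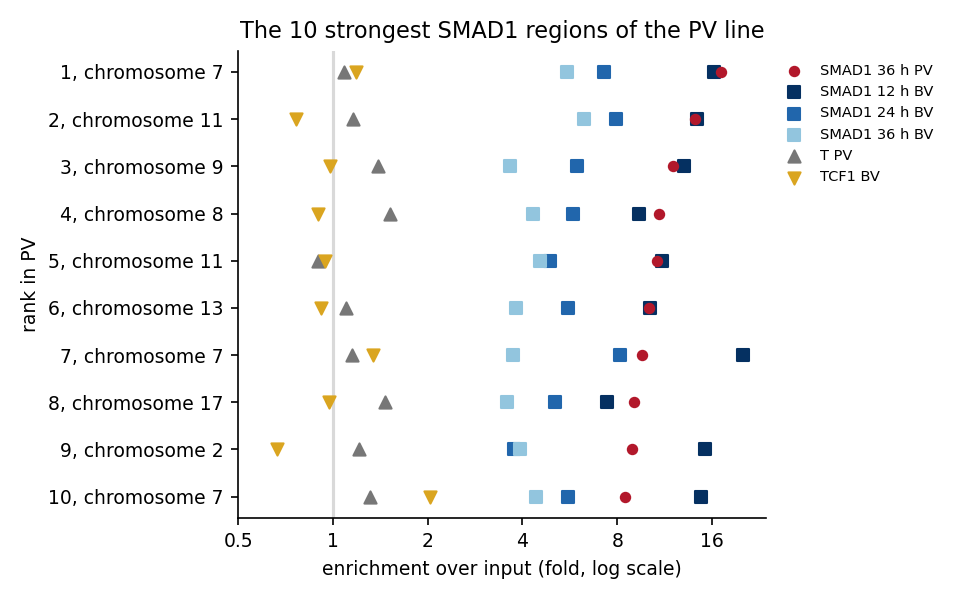
Enrichment over input (x axis, fold on a log scale) at the summits of the 10 strongest SMAD1 regions of PV (y axis, rank and chromosome), in SMAD1 at 36 h of PV, SMAD1 at 12, 24 and 36 h of BV, T of PV and TCF1 of BV. SMAD1 of PV and of BV at 12 h lie highest in each row, and T lies between 0.90 and 1.51.

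Among all 74 regions at 4-fold or more, summit enrichment was 4.09 at the lowest, 5.17 at the median and 17.1 at the highest. SMAD1 counts at the summit ranged from 73 to 922 and input counts from 4 to 84. The median scaled input was 0.930 in PV, 0.993 in BV and 0.993 in BVSC, close to the typical level of 1, though single summits had as few as 4 input counts in PV. Each of the 74 also stood at 2-fold or more over each of the 3 inputs, and 52 of them at 4-fold or more over each. In the BV libraries, which did not choose them, 72 of 74 (97.3%, exact 95% interval 90.6 to 99.7) reached 2-fold at 12 h, where 0.161% of all windows did. At 24 h it was 68 of 74, where 0.0331% of all windows passed, and at 36 h 59 of 74, where 0.05% did. All 3 BV libraries passed together at 57 of 74, a combination met by 0.00933% of all windows. The intervals treat regions as independent trials and say nothing of the spread between experiments.

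Among the strong regions, strength in PV and in each SMAD1 library of BV was related. Over the 74 regions, log2 enrichment in PV at 36 h followed that of BV at 12 h with a Spearman correlation of 0.62 and a Pearson correlation of 0.63, a description across regions that share libraries and were chosen by their PV value. The Spearman correlation was 0.25 over the 61 regions of 3- to 4-fold and 0.43 over the 633 weaker ones, of which the single windows gave 0.23. The classes were cut on the PV value, which spanned only 3.01 to 3.99 and 2.00 to 2.99 there, against 4.09 to 17.1. These correlations therefore cannot be compared between classes. Over all 768 regions the Spearman correlation with BV at 12 h was 0.65. With BV at 24 and 36 h, the 74 strong regions gave Spearman correlations of 0.59 and 0.54. The difference in log2 enrichment of PV minus BV at 12 h had a median of -0.17, with PV higher at 23 of 74 regions. For PV minus BV at 36 h the median was 1.01, with PV higher at 72 of 74. Choosing regions and summits by their PV value also favours a higher value in PV in both differences. Line, library, depth, input and, for the 12 h library, time differ together in these pairs and cannot be told apart. T was near background, with a median log2 enrichment of 0.24 over the shared input PV and 0.06 over input BVSC. For TCF1 it was 0.04.

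At 4-fold or more, BV passed at 62 of 74 regions at 12 h (0.0101% of all windows), at 24 at 24 h (0.00428%) and at 14 at 36 h (0.000982%). The 14 were at 4-fold in all 4 SMAD1 libraries. Besides the 2 strongest, those with the highest lowest value lay on chromosomes 6, 11 and 7. Chromosome 11 from 22871001 to 22874001 measured 4.58 in PV, with 239 SMAD1 against 37 input counts, and 12.2, 7.22 and 4.92 in BV at 12, 24 and 36 h. Chromosome 7 from 52429001 to 52433001 measured 7.54 in PV and 21.5, 4.58 and 4.89 in BV, and its 12 h value was the highest of the class. Chromosome 6 from 30685001 to 30690001 measured 7.02 in PV and 10.0, 5.35 and 5.08 in BV.

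Another factor was also enriched at a minority of the strong regions. Over input PV, T reached 2-fold at 3 of the 74 (4.05%, where 0.428% of all windows passed), and these are named after their values were seen. In the chromosome 6 region at 30685001 SMAD1 of PV measured 7.02 and T 2.57, on chromosome 2 from 174120001 to 174125001 SMAD1 measured 5.94 and T 2.32, and on chromosome 5 from 4757001 to 4760001 SMAD1 measured 4.17 and T 2.31. Over input BVSC, T stood at 3.04, 1.99 and 2.55 in the same windows, and it reached 2-fold at 6 of the 74 (8.11%, where 0.641% of all windows passed). TCF1 reached 2-fold at 2 of the 74 (where 0.102% of all windows passed), the chromosome 7 region at 24888001 with 2.04 and a chromosome 11 region at 120091001 with 4.19.

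At 1 of the 74 strong regions no BV library reached 2-fold. All others, also those next lowest in BV, reached it in at least 1 BV library. The exception lay on chromosome 10 from 13724001 to 13727001, with 226 SMAD1 and 37 input counts in PV. Its enrichment was 4.35 and its plain ratio 5.93 (4.17 to 8.64). There SMAD1 of BV stood at 0.77, 0.64 and 0.85 at 12, 24 and 36 h, and T of PV at 0.92. Its signal sat in 1 bin of 1 kb, at 9.37-fold, so it was narrower than the median strong region, which held 3 such bins in a row at 2-fold or more. On chromosome 16 from 7301001 to 7306001 SMAD1 of PV measured 4.09, and BV had 1.65, 2.46 and 1.77 at 12, 24 and 36 h. T stood at 1.98 in that window. Chromosome 8 from 78223001 to 78227001 had 5.83 in PV with 147 against 10 counts, and 3.03, 2.27 and 1.69 in BV at 12, 24 and 36 h. The last of the 5 with the lowest BV values, chromosome 11 at 59275001 and chromosome 16 at 13544001, had 4.86 and 4.38 in PV and stood above 3-fold at 12 h in BV.

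Most of the 61 regions between 3- and 4-fold were enriched at 12 h in BV as well. Their median enrichment was 3.38, with summit counts of 57 to 400 for SMAD1 and 6 to 93 for the input. Over each of the 3 inputs, 59 of 61 also passed 2-fold, but only 28 of 61 passed 3-fold. At 12 h in BV, 58 of 61 (95.1%, 86.3 to 99.0) reached 2-fold and 23 of 61 reached 4-fold. At 24 h 38 of 61 passed 2-fold, and at 36 h in BV 29 of 61. Of all windows, 0.161% reached 2-fold and 0.0101% reached 4-fold at 12 h. At 24 h and 36 h in BV, 0.0331% and 0.05% reached 2-fold. Median enrichment at 12 h in BV was 3.67, and PV was higher than BV at 12 h at 29 of 61.

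By the lower bound of the plain ratio, the class was led by chromosome 13 from 61960001 to 61965001, where 78 SMAD1 counts stood against 7 input counts (plain ratio 10.8, 5.01 to 27.8). The pseudocount held its enrichment to 3.81, and BV measured 2.77 at 12 h. Chromosome 2 from 150063001 to 150065001 had 84 against 9 counts (3.74) and 2.57 at 12 h in BV. The regions starting at 67925001 on chromosome 13, at 146764001 on chromosome 4 and at 49867001 on chromosome 7 followed. Their enrichments were between 3.45 and 3.80 in PV and between 2.44 and 4.27 at 12 h in BV. Not all of the 5 held 3-fold over the other inputs. Over input BVSC and input BV, SMAD1 of PV measured 3.91 and 2.45 at the leading region and 3.48 and 3.61 at the chromosome 2 region. The regions at 67925001, 146764001 and 49867001 measured 2.79 and 2.38, 2.26 and 2.05, and 3.84 and 4.25.

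Exceptions in this class were again few. No BV library reached 2-fold at 2 of the 61 regions, named after their values were seen. On chromosome 14 from 40971001 to 40974001 SMAD1 of PV had 3.48 (127 against 23 counts), and BV stood at 0.84, 0.73 and 0.90 at 12, 24 and 36 h. On chromosome 2 from 150165001 to 150168001 PV had 3.01 from only 58 against 7 counts, and BV between 1.23 and 1.65.

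The 633 regions between 2- and 3-fold were a mixture. Most were narrow, with 505 of 633 (79.8%) made of a single window, against 2 of 61 and 0 of 74 in the stronger classes. Width was counted at the same 2-fold cut that chose the regions, and input PV is the denominator of the choosing ratio. The median scaled input at their summits was 0.687 in PV, whereas the same windows held 0.971 in input BV and 0.940 in input BVSC. A low value in input PV thus moved with membership of this class, and its part in the result was not tested. Over input BVSC 206 of the 633 stayed at 2-fold, over input BV 200 and over both 148. These ratios keep the SMAD1 counts that chose the regions. The extreme case was chromosome 12 at 116640001, chosen for the highest lower bound, with 19 SMAD1 counts against 0 input counts and an enrichment of 2.06, but 0.93 over input BVSC and 1.03 over input BV.

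BV libraries divided this class. SMAD1 at 12 h in BV reached 2-fold at 192 of 633 regions (30.3%, 26.8 to 34.1), and 56.1% were at 1.5-fold or more, where 3.15% of all windows were. The later BV libraries passed 2-fold at 65 regions (24 h, 0.0331% of all windows) and 40 regions (36 h, 0.05% of all windows). Single windows passed at 12 h at 106 of 505 (21.0%, 17.5 to 24.8), and regions of several windows at 86 of 128 (67.2%, 58.3 to 75.2). Of the 148 regions at 2-fold over each of the 3 inputs, 112 passed (75.7%, 67.9 to 82.3), and of the other 485 only 80 (16.5%, 13.3 to 20.1). All of these shares lay above the 0.161% of all windows, which do not share the low input PV of this class. The 148 were chosen partly by a ratio to input BV, which is also the background of the BV libraries. Their share is therefore not independent of that choice. The median scaled input BV was 0.957 at the 148 and 0.980 at the other 485.

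**Figure D3:**
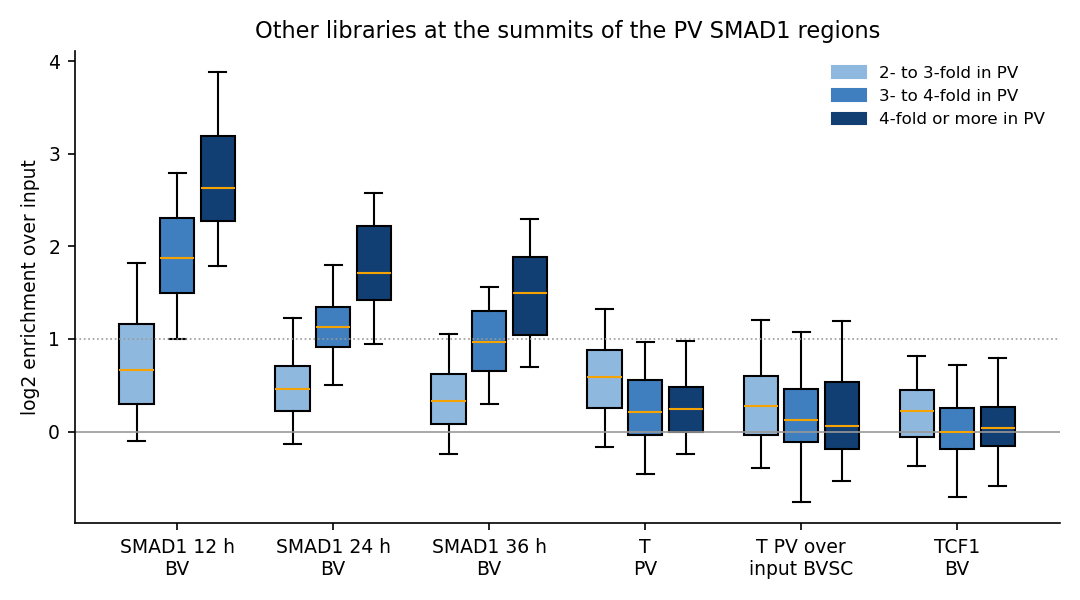
Log2 enrichment over input (y axis) of the other immunoprecipitated libraries at the summits of the SMAD1 regions of PV, by class of enrichment in PV (74 regions at 4-fold or more, 61 at 3- to 4-fold, 633 at 2- to 3-fold); boxes span the quartiles with the median as a line, and whiskers the 5th to 95th percentile. The median of SMAD1 of BV at 12 h is 2.63 in the strongest and 0.67 in the weakest class. Those of T and TCF1 are highest in the weakest class.

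T was highest in the weakest class, and so was TCF1. The median log2 enrichment of T over input PV was 0.58 at the 633 weak regions, 0.21 at 3- to 4-fold and 0.24 at 4-fold or more. T reached 2-fold over input PV at 117 of 633 (18.5%) and over input BVSC at 60 of 633 (9.48%), against the 0.428% and 0.641% of all windows given above. The medians over input BVSC were 0.28, 0.12 and 0.06. TCF1, which shares neither the line nor the input, passed at 15 of 633 (2.37%, where 0.102% of all windows did). The median log2 enrichment of TCF1 was 0.22 in the weakest class, -0.0092 at 3- to 4-fold and 0.039 at 4-fold or more. Among the weak regions, T over input PV stood at 4-fold or more at 2 (0.0473% of all windows), named after their values were seen. These were chromosome 1 at 60488001, where SMAD1 of PV measured 2.33 and T 11.4, and chromosome 7 at 55120001, where SMAD1 of PV measured 2.01 and T 6.89. SMAD1 of BV stood between 1.27 and 1.72 at both.

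Some weak regions were enriched in every SMAD1 library. Of the 633 regions, 18 stood at 2-fold or more in all 4 SMAD1 libraries. All 3 BV libraries passed together in 0.00933% of all windows. Chromosome 11 from 19919001 to 19922001 led them, with 158 SMAD1 against 43 input counts in PV (enrichment 2.83, plain ratio 3.57, 2.53 to 5.12) and 4.76, 3.14 and 3.13 in BV at 12, 24 and 36 h. Chromosome 13 from 47105001 to 47108001 had 2.68 in PV and 7.17, 3.54 and 2.46 in BV. Chromosome 5 at 105179001 measured 2.86 in PV and 6.07, 3.10 and 2.80 in BV.

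Chromosome 13 from 48322001 to 48325001 measured 2.73 in PV and 3.35, 2.92 and 3.47 in BV at 12, 24 and 36 h. Chromosome 4 from 147199001 to 147202001, the last of the 5 named, had 2.53 in PV and 3.77, 2.86 and 2.996 in BV. T of PV stood between 1.04 and 1.60 at these 5 regions. The 5 regions with the highest lower bound of their ratio differed more. After the chromosome 12 window without input counts came chromosome 6 at 69069001, with 46 against 5 counts (2.76) in PV and 2.16 at 12 h in BV. Chromosome 13 at 66675001 had 2.90 in PV and 3.46 at 12 h in BV, and chromosome 12 at 18157001 had 2.74 and 2.70. Of the 5, only 1 was at 2-fold in all 4 SMAD1 libraries, chromosome 13 at 71159001 with 2.96 in PV and 5.87, 2.34 and 2.36 in BV.

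SMAD1 in BV was lower at 36 h than at 12 h at every one of the 57 strong regions that stood at 2-fold in all 4 SMAD1 libraries. The 36 h library also passed less often over all windows, with 0.05% at 2-fold and 0.000982% at 4-fold. At 12 h these shares were 0.161% and 0.0101%. Time and library differ together here and cannot be told apart. In the weaker classes 7 such regions had the higher value at 36 h in BV, 5 of 18 between 2- and 3-fold in PV and 2 of 24 between 3- and 4-fold. They were named after their values were seen. Chromosome 4 from 135695001 to 135698001 held 145 SMAD1 and 37 input counts in PV (enrichment 2.90, plain ratio 3.80, 2.64 to 5.62), and measured 2.59, 2.42 and 3.46 in BV at 12, 24 and 36 h. Chromosome 2 from 152559001 to 152562001 held 145 and 42 counts in PV (2.66) and measured 2.22, 2.62 and 2.58 in BV. The others were chromosome 8 at 93351001, chromosome 12 at 31776001 and 117297001, and chromosome 13 at 48322001 and 48357001. The scaled ratio of 36 h to 12 h in BV lay between 1.04 and 1.45 over the 7, and at none of them did its counting interval exclude 1 (for chromosome 4, 1.38 with 0.94 to 2.03).

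Both of the first regions belonged to a tight group. On chromosome 4, 3 regions lay between 135695001 and 135705001, at 2.90, 2.01 and 2.38 in PV, each at 2-fold or more over all 3 inputs. On chromosome 2, 3 regions between 152533001 and 152567001 measured 2.04, 2.66 and 2.09, and the middle region passed over all 3 inputs. T of PV stood between 1.57 and 2.08 over the first group and between 1.25 and 1.69 over the second.

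Some SMAD1 regions lay in groups. Joining regions with summits up to 100 kb apart gave 21 groups of 3 or more regions, holding 76 of the 768, and 15 of the 21 held a region at 3-fold or more. On chromosome 9 between 21969001 and 22086001 the region at 12.0 had neighbours at 2.25, 4.30 and 2.38. On chromosome 8 between 71750001 and 71898001 the region at 10.9 had neighbours at 2.03, 5.48 and 5.78. The 3 largest groups held 5 regions each.

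A pair of these lay on chromosome 5, from 110103001 to 110313001 with enrichments of 2.26 to 3.91 and from 110438001 to 110559001 with 2.00 to 5.38. The third lay on chromosome 7 from 13346001 to 13437001, with 2.07 to 3.50. In each of the 3 groups 4 of the 5 regions were at 2-fold or more at 12 h in BV, and T of PV reached at most 1.45. On chromosome 13 a group of 4 between 65350001 and 65440001 held no region at 3-fold, with 2.26 to 2.75 in PV and 1.98 to 3.28 at 12 h in BV.

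Grouping by itself was not a mark of SMAD1 at the lowest threshold. Of the regions at 2-fold, 27.9% had another within 100 kb, and of the regions of the exchanged ratio 30.2%. At 4-fold 26.7% of the 75 SMAD1 regions had such a neighbour, against 9.76% of the 635 T regions of the same line called by the same rule. Of the weak regions, 43 lay within 100 kb of a region at 3-fold or more, and 28 of these (65.1%, 49.1 to 79.0) were at 2-fold at 12 h in BV, against 164 of the other 590 (27.8%, 24.2 to 31.6).

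Signal around the summits was confined in the median profile to about 2 kb on either side. In the class at 4-fold or more, median enrichment of SMAD1 in PV was 5.17 at the summit window, 3.54 and 3.31 in the windows 1 kb before and after it, and 1.47 at 2 kb on both sides. At 10 kb it was 1.06 before and 1.04 after. The 12 h library of BV had the same shape with a higher summit (6.18). In bins of 1 kb, obtained by splitting the overlapping windows, the strongest bin of the leading region on chromosome 7 stood at 28.8-fold, and the median top bin of the class at 6.75-fold. Counts in windows of this size place no binding site more finely. In the weak class T showed a rise at the summit too, at a median log2 enrichment of 0.58 over the shared input PV. The choice of these summits favoured a low input PV, and over input BVSC the median of T was 0.28. TCF1 of BV over input BV had a median enrichment of 1.16 at these summits, against 1.07 and 1.05 at 2 kb before and after.

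**Figure D4:**
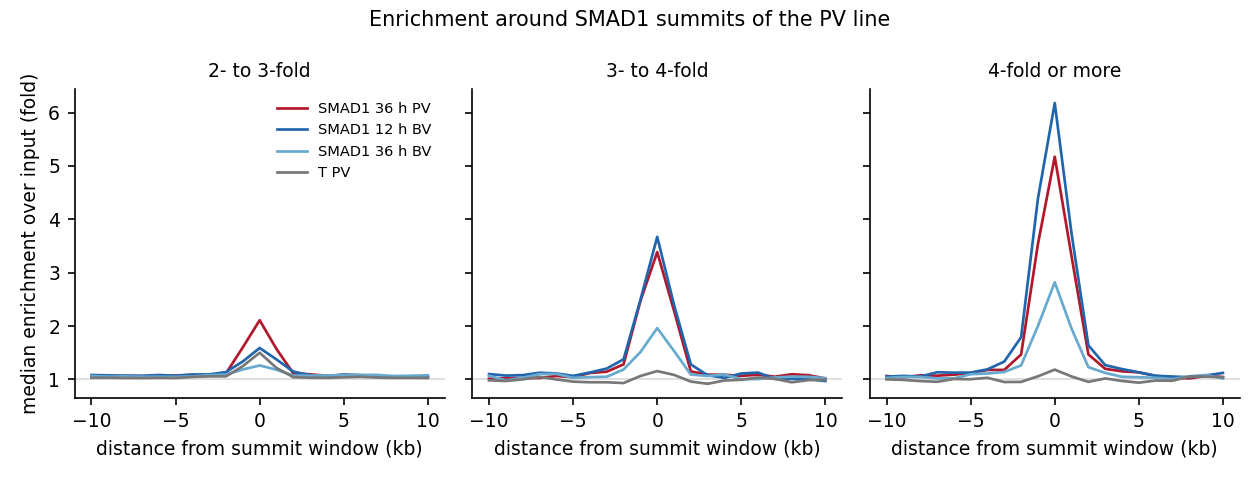
Median enrichment over input (y axis, fold) in 2 kb windows around the summits of the SMAD1 regions of PV (x axis, distance in kb), for regions at 2- to 3-fold, 3- to 4-fold and 4-fold or more; lines are SMAD1 at 36 h of PV, SMAD1 at 12 and 36 h of BV, and T of PV. At 4-fold or more SMAD1 of PV has 5.17 at the summit and 1.47 at 2 kb, while T has 1.18 at the summit. In the weakest class T over input PV rises at the summit too, where the choice of regions favours a low input PV.

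Regions were unevenly spread over the autosomes. Chromosome 17 held 1.52 regions at 3-fold or more per 10 Mb of windows kept, chromosome 7 held 1.37 and chromosome 13 held 1.11. Chromosome 15 held 0.104 and chromosome 3 held 0. Chromosome 7 held 12 of the 74 regions at 4-fold or more, and chromosomes 5, 8 and 17 held 8 each. The order of chromosomes 17, 7 and 13 was the same with both libraries scaled within each chromosome (1.40, 1.37 and 1.11), an alternative chosen after the data were seen. For weak regions the order depended on that choice. With 1 scaling for all autosomes they were densest on chromosomes 17 and 7, with 5.24 and 4.50 per 10 Mb, and scarcest on chromosome 14, with 4 regions or 0.370 per 10 Mb. Scaled within each chromosome, chromosome 3 was the densest with 4.28 per 10 Mb, chromosome 17 had 4.08, chromosome 7 had 2.90, and chromosome 14 was still the lowest.

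The scarcity on chromosome 14 moved with the level of the whole chromosome. SMAD1 of PV stood there at a mean scaled level of 1.06 and input PV at 1.17, a ratio of 0.910, the lowest of the 19 autosomes. The exchanged ratio passed 2-fold in 196 windows of chromosome 14, more than on any other autosome. Under the scaling within chromosomes, chromosome 14 had 13 weak regions and chromosome 3 had 63 in place of 35. The total at 2-fold was then 754 regions, and at 3-fold 133.

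**Figure D5:**
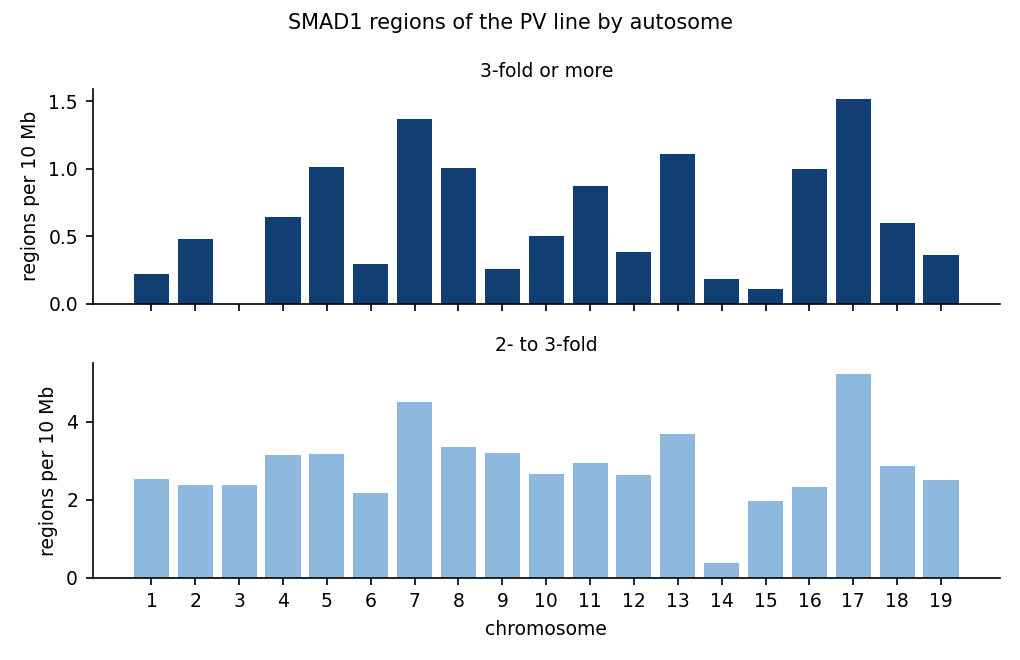
SMAD1 regions of PV per 10 Mb of windows kept (y axis) on each autosome (x axis), for regions at 3-fold or more (top) and at 2- to 3-fold (bottom). Chromosomes 17 and 7 are the densest in both panels with 1 scaling for all autosomes, but for weak regions chromosome 3 is the densest (4.28) when libraries are scaled within chromosomes; chromosome 3 has no region at 3-fold or more.

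At lower depth more regions passed 2-fold, not fewer. When 34.4% of its reads were drawn, which matches the BV library of 36 h, SMAD1 of PV gave 2952 regions at 2-fold in place of 768, and 590 of the 2952 shared a 2-fold window with the full library. All 61 regions of 3- to 4-fold and all 74 stronger ones still held a 2-fold window, as did 454 of the 633 weak ones. Of the thinned library's 2809 regions at 2- to 3-fold, 8.69% were at 2-fold at 12 h in BV, against 30.3% at full depth.

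Regions chosen in BV gave the view from the other side. Of 116 regions at 4-fold or more at 12 h in BV, PV at 36 h stood at 4-fold or more at 62, at 3- to 4-fold at 23 and at 2- to 3-fold at 24, so 7 were below 2-fold, where 0.052% of all windows passed 2-fold in PV. Of 48 chosen at 24 h, 14 were below 2-fold in PV, and of 16 chosen at 36 h in BV, 2 were. At their own summits, 18 of the 633 weak regions stood at 4-fold or more at 12 h in BV (0.0101% of all windows). Among the weak regions the highest 12 h value was 7.49, on chromosome 6 at 47974001, where PV had 97 against 36 counts and an enrichment of 2.09.

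Values of single windows ran on without a gap across the thresholds. Just inside 2-fold, chromosome 2 at 181681001 and chromosome 9 at 75223001 both held 86 against 33 counts (enrichment 2.00) and chromosome 6 at 60944001 held 51 against 16. Just outside, chromosome 8 at 86715001 held 121 against 50, and 2 windows of chromosome 1 at 6163001 and 107252001 held 53 against 17. Around 3-fold, chromosome 5 at 23210001 (101 against 21 counts), chromosome 1 at 173411001 (3.01) and chromosome 2 at 150166001 (3.01) lay inside, and chromosome 18 at 74523001 (2.99), chromosome 7 at 6680001 (2.98) and chromosome 11 at 58671001 (2.98) outside. Around 4-fold, chromosome 6 at 149078001 (4.01), chromosome 8 at 71896001 (4.04) and chromosome 5 at 110474001 (4.08) lay inside, and chromosome 16 at 13544001 (4.00, below the threshold before rounding), chromosome 17 at 95216001 (3.99) and chromosome 6 at 30688001 (3.97) outside. Of the windows outside 4-fold, those on chromosomes 16 and 6 are flanks of regions whose summits reached 4.38 and 7.02, and of those outside 3-fold, the ones on chromosomes 7 and 11 are flanks of regions with summits at 5.01 and 4.77. The 3 windows inside 4-fold are flanks too, since the lowest summit of that class was 4.09. So is the chromosome 5 window inside 3-fold, at 3.0025, since the lowest summit past 3-fold was 3.0068.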

How the data were processed

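ChIP-seq counts of 6 immunoprecipitated libraries and 3 inputs were used, with 1 library per group. The deposited values are raw read counts per window, made by the authors with no normalization, as the whole numbers and unequal totals show. Reads were single-end and 50 bp long, per the labels' protocols, and the submitters' processing notes name Bowtie 0.12.8 and the build mm9. No source used here says how repeated or ambiguous reads were treated. PCR copies are not separate molecules, so every interval covers counting error only.

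Of 2472353 autosomal windows, 2240703 (90.6%) were kept. A mean scaled input under 0.25 removed 230555 windows and an input over 3 removed 1095. Libraries were scaled over 1977886 windows. Each read is counted in 2 overlapping windows, so depth was taken from every other window. Bins of 1 kb were split from the windows, and none was below 0 in SMAD1 of PV or input PV. BV libraries were set over input BV and T over input PV. Regions named were the 10 strongest, 5 each of the weaker classes by lower bound, 5 each by the lowest value over the 4 SMAD1 libraries (the class of 3 to 4 had no region past 3-fold in all of them), 5 with the lowest BV values, and the 3 windows on either side of each threshold. Members, classes and lists were chosen with earlier results of these data known. The region finder was tested on simulated data. Alternatives changed the pseudocount, scaling, input, filters, depth and region width. Near-gene shares and gene lists, planned only for an annotation of mm9, were not used here. Python 3.11.15, NumPy 2.4.6, SciPy 1.17.1, pandas 2.3.3 and matplotlib 3.10.9 were used.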

Additional observations from a re-analysis of the deposited data

Results flagged for a closer look

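Windows at 3-fold or more also lay in data that the autosomal comparison did not use. On chromosome X, SMAD1 passed 2-fold in 17 of 122512 windows, fewer than the 62 of the exchanged ratio. At 3-fold or more 5 of the 122512 windows passed, where 261 of the 2240703 autosomal windows kept (0.0116%) did. They formed 2 regions, against 0 windows of the exchanged ratio. The first, from 20606001 to 20610001, had an enrichment of 6.16 (226 SMAD1 against 21 input counts) and 6.30, 4.34 and 2.68 in BV at 12, 24 and 36 h. The second, from 20658001 to 20661001, had 5.18 (166 against 17 counts) and 3.32, 1.95 and 1.84 in BV. T of PV stood at 1.03 and 0.92 in these windows.

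Among the 231650 autosomal windows left out by the input filter, 32 had SMAD1 at 3-fold or more over input PV. The exchanged ratio passed in 4. Of the 2240703 windows kept, 261 (0.0116%) had SMAD1 at that fold. Of the 32, 21 were left out for low input and 11 for high input.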

How the results depend on the processing

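No paired analysis was possible because each group has 1 library and no test was made. The 3-fold count kept its size best. Main counts were 1165 windows and 768 regions at 2-fold, 261 and 135 at 3-fold, and 127 and 75 at 4-fold. A pseudocount of 0.25 gave 4280 windows and 3439 regions at 2-fold and 191 windows at 4-fold. A pseudocount of 1 gave 454 and 227 at 2-fold, 160 and 87 at 3-fold and 59 and 36 at 4-fold, and lowered the median log2 enrichment of SMAD1 of BV at 12 h to 0.53, 1.58 and 2.25 in the classes of 2 to 3, 3 to 4 and 4 or more. At 24 h these medians became 0.35, 0.90 and 1.40, at 36 h in BV they became 0.25 in the weakest and 1.22 in the strongest class, and in the weakest class T had 0.42 and TCF1 0.17. With input BVSC as background, SMAD1 passed 2-fold in 2370 windows and 1701 regions, and T had medians of 0.28 in the weakest and 0.057 in the strongest class. The mean of the 3 inputs left 476 regions at 2-fold, and a scaled SMAD1 level at or above the fold left 465. Thinning gave 3581 windows and 2952 regions at 2-fold, and at least 2 consecutive windows left 658 windows and 261 regions at 2-fold and 46 regions at 4-fold. Passing over each of the 3 inputs, chosen after seeing the data, left 564 windows and 289 regions at 2-fold. In regions, the exchanged roles gave 1267, 3 and 0 at 2-, 3- and 4-fold, input BVSC in place of SMAD1 gave 1322, 7 and 1, and input BV in place of SMAD1 gave 105, 6 and 1. In windows, they gave 3 and 0 at 3- and 4-fold for the exchanged roles, 12 and 1 for input BVSC, and 154, 10 and 1 at the 3 folds for input BV. The share of weak regions at 2-fold at 12 h in BV was 30.3%, and it was 56.1% at 1.5-fold, 10.3% in the 24 h library, 6.32% in the BV library of 36 h, 8.69% after thinning and 75.7% for regions over each of the 3 inputs. In the class of 3 to 4 the shares were 95.1% at 12 h, then 62.3% and 47.5% in the later libraries of BV. The 12 h share was 100% for the 28 regions of this class at 3-fold over each of the 3 inputs. In the class of 4 or more the 12 h share was 97.3% and the share at 36 h in BV 79.7%. The 12 h share was 100% for the 52 regions of this class at 4-fold over each of the 3 inputs. The median log2 enrichment of TCF1 in the class of 4 or more, 0.039 as reported, was -0.0045 with input BVSC as background, and no other value recomputed changed its sign. Alternatives that need the positions of genes were not run. The cause of these shifts was not tested.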
